A study of Mus musculus with 24 samples.

Results

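The region described here is the Malat1 and Neat1 locus of mouse chromosome 19, taken as the 80 kb window chr19:5780000-5860000 (mm9). Its members are all peaks of the 14 deposited peak lists that overlap this window by at least 1 bp, 98 of 26332 peaks. The locus was selected on the number of Foxa3 peaks in these same lists, so its peak numbers are given as a description and carry no test. The window holds Malat1 at about 5.795 to 5.803 Mb and Neat1 at about 5.825 to 5.846 Mb. These 2 intervals are approximate, because no mm9 annotation was used here.

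The lists come from chromatin immunoprecipitation and sequencing (ChIP-seq) of C57BL/6 mouse cells. Induced hepatocyte-like (iHep) cells were derived from fibroblasts of day 13.5 embryos by infection with a Foxa factor and Hnf4alpha, a nuclear receptor of hepatocytes. Line 4a3 received Foxa3 and was profiled with a Foxa3 antibody in 3 libraries. Line 4a2 received Foxa2 and was profiled with a Foxa2 antibody in 3 libraries, and line 4a1 received Foxa1 and was profiled with a Foxa1 antibody in 3 libraries. For each line the titles of 2 libraries hold the term EGS, which the labels do not spell out, and the title of the other lacks it (non-EGS). A Flag antibody, against an epitope tag whose carrier the labels do not name, was used once in line 4a3 and once in line 4a2, both with EGS. Hepatocytes from the livers of 10-week-old adult mice, for which the labels list no introduced factor, gave 1 EGS library each for Foxa3, Foxa2 and Foxa1, all titled with the number 4. Among the iHep libraries made with a Foxa antibody, the antibody follows the line and its introduced factor, so the effects of these cannot be told apart. Only the Flag antibody was used in more than 1 line. The labels do not say whether a line is 1 clone or whether numbered cultures are separate inductions, so the spread between libraries may be technical. The 10 input libraries were not analysed here.

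Malat1 and Neat1 are long noncoding RNAs that stay in the nucleus and are abundant in many mouse tissues. Malat1 RNA gathers in nuclear speckles, which hold splicing factors, and its processing releases a small tRNA-like RNA (mascRNA) to the cytoplasm. Neat1 RNA is the scaffold of paraspeckles. It is made as a short and a long form from the same start, and only the long form builds paraspeckles. Both genes are transcribed toward lower coordinates, so the start of each lies at the upper end of its interval. The 3 Foxa proteins are forkhead factors of liver and other endodermal tissues, which can bind sites packed in nucleosomes. In the RefSeq annotation of GRCm38.p6 the nearest protein-coding neighbour on the Neat1 side is Frmd8.

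The Malat1 promoter is shown because every Foxa3 list had a peak in the uppermost 1 kb of the Malat1 interval, the side on which its transcription starts. The sequence is RefSeq's, of build GRCm38.p6, chr19:5802623-5802922, minus strand. It was not placed on the mm9 peak coordinates. Lower case marks the 250 bases before the start and capitals mark the first 50 transcribed bases.
Malat1 promoter: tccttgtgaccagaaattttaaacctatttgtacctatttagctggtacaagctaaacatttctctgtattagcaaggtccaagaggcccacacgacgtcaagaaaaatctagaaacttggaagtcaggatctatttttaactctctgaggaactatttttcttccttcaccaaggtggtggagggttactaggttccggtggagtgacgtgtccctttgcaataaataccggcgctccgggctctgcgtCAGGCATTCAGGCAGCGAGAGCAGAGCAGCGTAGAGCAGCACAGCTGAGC

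Its G and C content is 47%. The forkhead core letters TGTTTAC and TATTTAC, searched on both strands, had 0 matches in these 300 bases. Over the 32851 RefSeq promoters of the same length, TGTTTAC was in 3.65%, TATTTAC in 3.04% and either of them in 6.54%. The promoter table held no Neat1 entry.

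Peaks in the window came almost wholly from the Foxa3 antibody. Of the 98 peaks, 95 (96.9%) belonged to the 4 Foxa3 lists, which hold 25.4% of all peaks of the series. The 8 Foxa1 and Foxa2 lists, with 18728 peaks in all, had 1 peak in the window. Of the 14 lists, 6 had a peak there and 8 had none. The map of peaks across the window shows all 98.

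**Figure D1:**
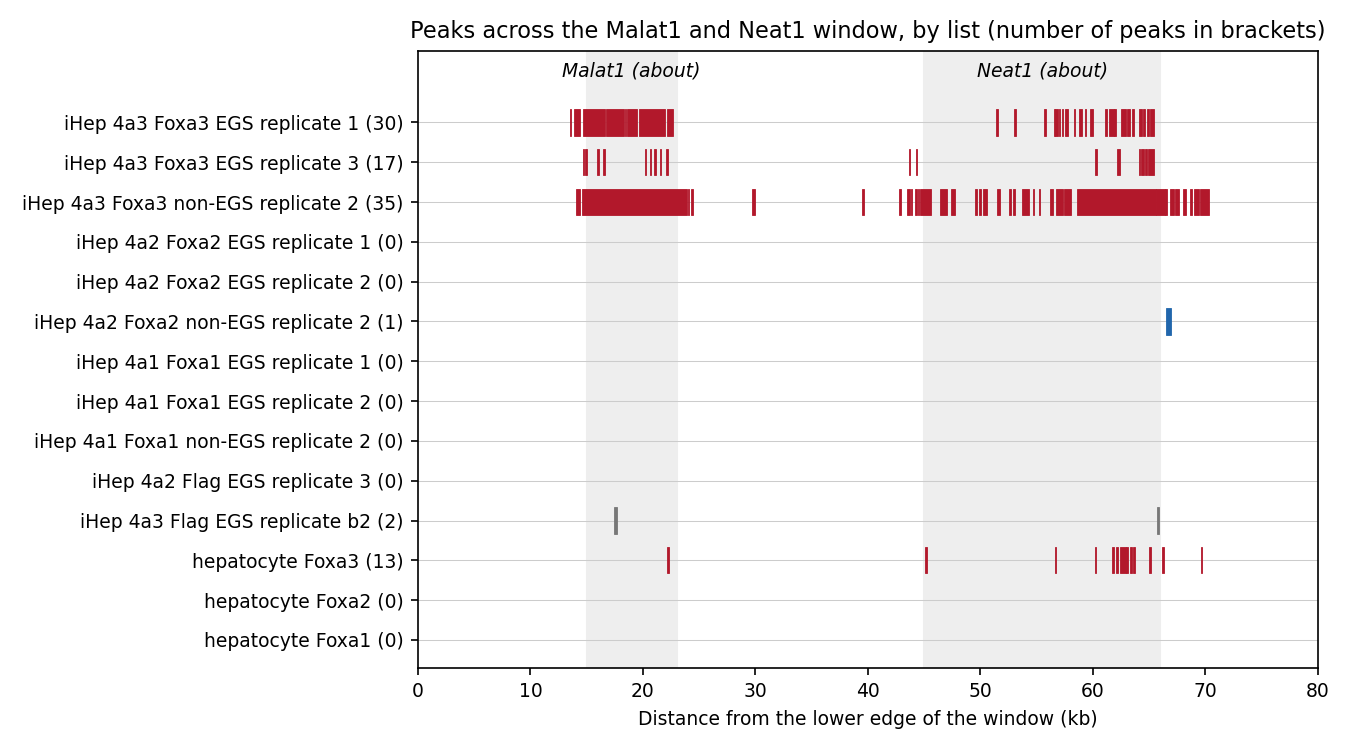
Position of each peak in the window, in kb from its lower edge, with 1 row for each list and the number of peaks in brackets. Shaded spans are the approximate Malat1 and Neat1 intervals. Foxa3 peaks (red) fill the Malat1 interval in 2 of the 3 iHep Foxa3 lists. They cover the upper end of Neat1 more than the rest of it in all 4 Foxa3 lists.

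In line 4a3 the window held 30 of 1246 peaks of Foxa3 EGS replicate 1, 17 of 46 peaks of EGS replicate 3 and 35 of 4317 peaks of the non-EGS library (mean 27.3 ± 9.29, SD, n = 3). In lines 4a2 and 4a1 it held 1 of 11408 peaks of the Foxa2 non-EGS library and 0 peaks of each of the other 5 Foxa2 and Foxa1 lists (mean 0.167 ± 0.408, SD, n = 6). The number of peaks in the 3 Foxa3 libraries did not overlap that in the 6 Foxa2 and Foxa1 libraries. Of the 9695 windows of this size that hold a peak of any list, 0.113% (11 windows) show the same separation, and the locus was chosen on these Foxa3 numbers. At most 18 windows could show it, since it needs a peak of EGS replicate 3, and that list has peaks in 18. The difference of the means was 27.2 peaks. Within the 3 iHep Foxa3 lists the number in the window followed list length, with 17, 30 and 35 peaks in lists of 46, 1246 and 4317. The hepatocyte Foxa3 list, with 13 in a list of 1091, did not follow this order. The 1 peak of the Foxa2 and Foxa1 lists was in the longest of them, and the next longest, Foxa1 non-EGS with 3431 peaks, had 0. The part of list length in these numbers was not tested.

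To read these numbers against other places, windows of the same 80 kb were laid end to end, and 9695 of them held a peak of at least 1 list. Windows without any peak are left out, so each share below is higher than over the whole genome. At least 1 peak was found in 7.94% of windows for Foxa3 EGS replicate 1, in 0.186% for EGS replicate 3 and in 23.4% for the Foxa3 non-EGS list. For Foxa2 the share was 9.24% and 9.88% in EGS replicates 1 and 2 and 79.9% in the non-EGS list. For Foxa1 it was 8.79% and 4.51% in EGS replicates 1 and 2 and 30.7% in the non-EGS list. A peak of the Foxa2 non-EGS list was thus usual among the counted windows, a set that this list itself largely made up (7749 of the 9695). Windows with a peak in each of the 3 Foxa3 lists of iHep cells were 0.186% of all (18 windows). These are all the windows with a peak of EGS replicate 3, so that short list sets the share.

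As a share of its list, the window held 36.96% of EGS replicate 3 (95% exact Clopper-Pearson interval 23.2 to 52.5), 2.41% of EGS replicate 1 (1.63 to 3.42) and 0.811% of the Foxa3 non-EGS list (0.565 to 1.13). The share was highest in the shortest list and lowest in the longest. The intervals hold counting error alone and are too narrow, since neighbouring peaks are not independent. EGS replicate 3 had no other peak on chromosome 19.

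**Figure D2:**
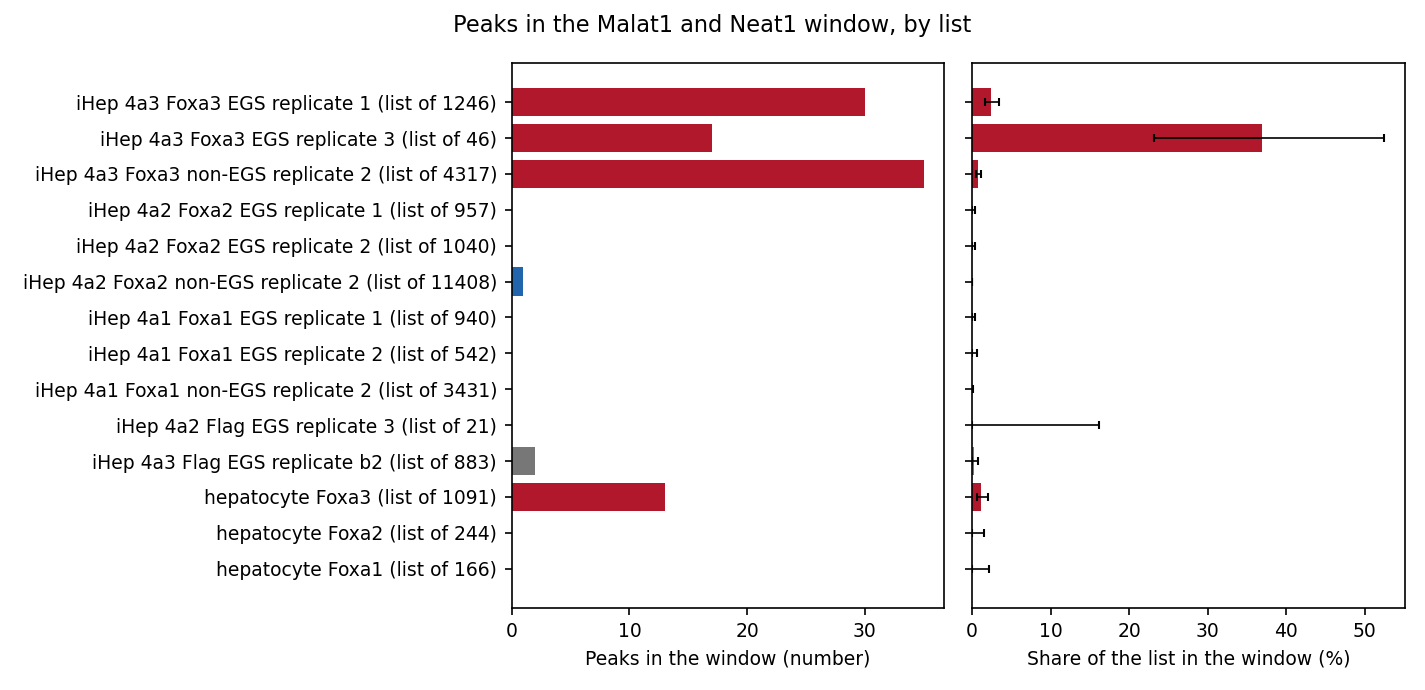
Number of peaks in the window (left) and share of the list that lies in it (right, with exact 95% intervals), by list. The 3 iHep Foxa3 lists had 30, 17 and 35 peaks and the hepatocyte Foxa3 list 13, while no other list had more than 2.

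Most titles end in a run code, which is treated as a possible batch, and 3 runs hold a Foxa3 library beside others. In run R170 the window held 17 peaks of Foxa3 EGS replicate 3, 0 of the 542 peaks of Foxa1 EGS replicate 2 and 0 of the 21 peaks of the Flag library of line 4a2. In run R176, which is all hepatocytes, it held 13 Foxa3 peaks, 0 of 244 Foxa2 peaks and 0 of 166 Foxa1 peaks. In run R156 it held 30 peaks of Foxa3 EGS replicate 1 and 2 of the 883 Flag peaks of line 4a3. The locus was chosen on its Foxa3 numbers, so these values describe the runs, and the part of the run in them was not tested. Libraries without EGS share no run code with each other. In the EGS libraries of iHep cells alone the means were 23.5 Foxa3 peaks and 0.0 Foxa2 and Foxa1 peaks.

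By number of peaks the window was the first of all 9695 in each of the 3 iHep Foxa3 lists. The next window held 20 peaks in EGS replicate 1, 3 in EGS replicate 3 and 22 in the non-EGS list. By length covered with peaks it was also first in all 3. These places are a description of the choice of the locus, not a test of it.

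**Figure D3:**
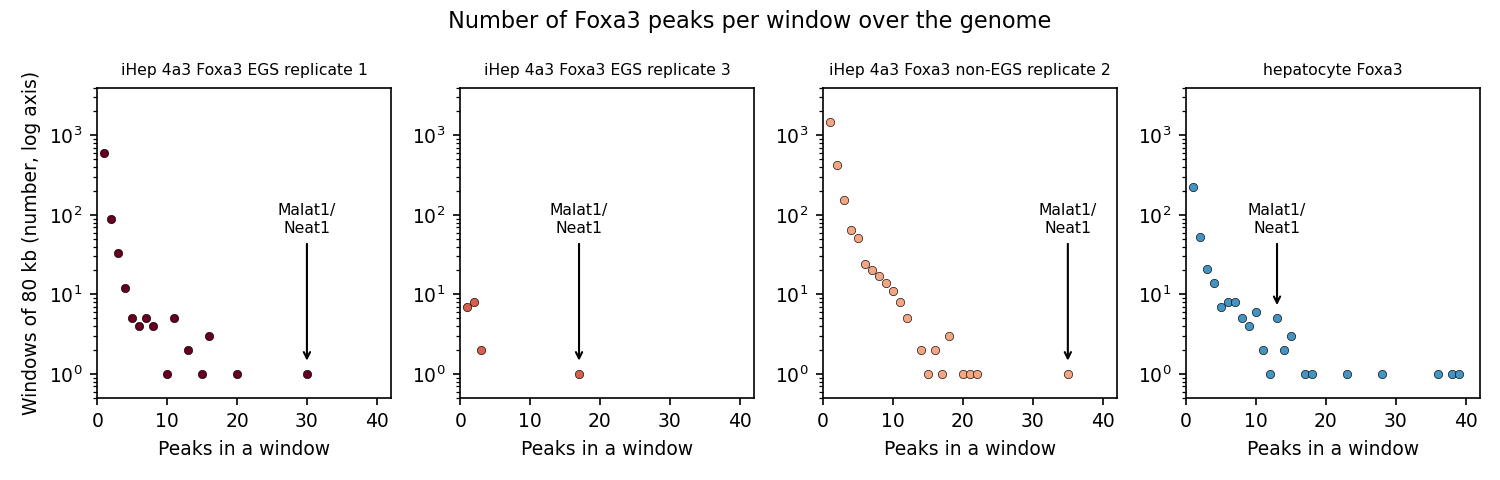
Number of 80 kb windows (log axis) that hold a given number of peaks, for the 4 Foxa3 lists, counting windows with at least 1 peak of that list. The window of Malat1 and Neat1, marked by an arrow, holds the most peaks in the 3 iHep lists (30, 17 and 35), and 12 windows hold more than its 13 in the hepatocyte list.

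Malat1, the lower of the 2 genes, was covered nearly from end to end in 2 of the 3 iHep Foxa3 lists. Peaks covered 88.2% of its interval in EGS replicate 1, 12.3% in EGS replicate 3 and 100% in the non-EGS list. In the non-EGS list a single peak of 9304 bp, from 5794621 to 5803924, spanned the whole interval and was the widest of that list. It took rank 27 of 4317 by score, the authors' own value for a peak, whose scale is not given in the sources used here. Within this stretch EGS replicate 1 had 6 peaks and EGS replicate 3 had 9. One peak of EGS replicate 1, from 5799672 to 5801933, was 2262 bp wide, the widest of its list, and ranked 15 of 1246 by score. The 3 widest peaks of EGS replicate 1 all lay in this stretch.

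Neat1 was covered unevenly, and most at its upper end, where its transcription starts. The interval was cut in 3 parts of 7 kb. In EGS replicate 1 the peaks covered 42.9% of the upper part, 21.7% of the middle part and 3.3% of the lower part. In EGS replicate 3 they covered 20.9% of the upper part, and the other parts held no peak. In the non-EGS list the cover was 99.1%, 43.5% and 38.1% in the same order. The upper part was thus the most covered in all 3 lists.

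The top-scoring peak of the whole Foxa3 non-EGS list lay in Neat1, from 5838626 to 5845582, with a width of 6957 bp and a score of 80.4. EGS replicate 1 had 13 peaks in this stretch and EGS replicate 3 had 6. One of these, from 5844877 to 5845397 and 521 bp wide, was second of 46 in its list by both score and width. In EGS replicate 1 a peak of 204 bp, from 5844792 to 5844995, ranked 46 of 1246, the highest of its Neat1 peaks.

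**Figure D4:**
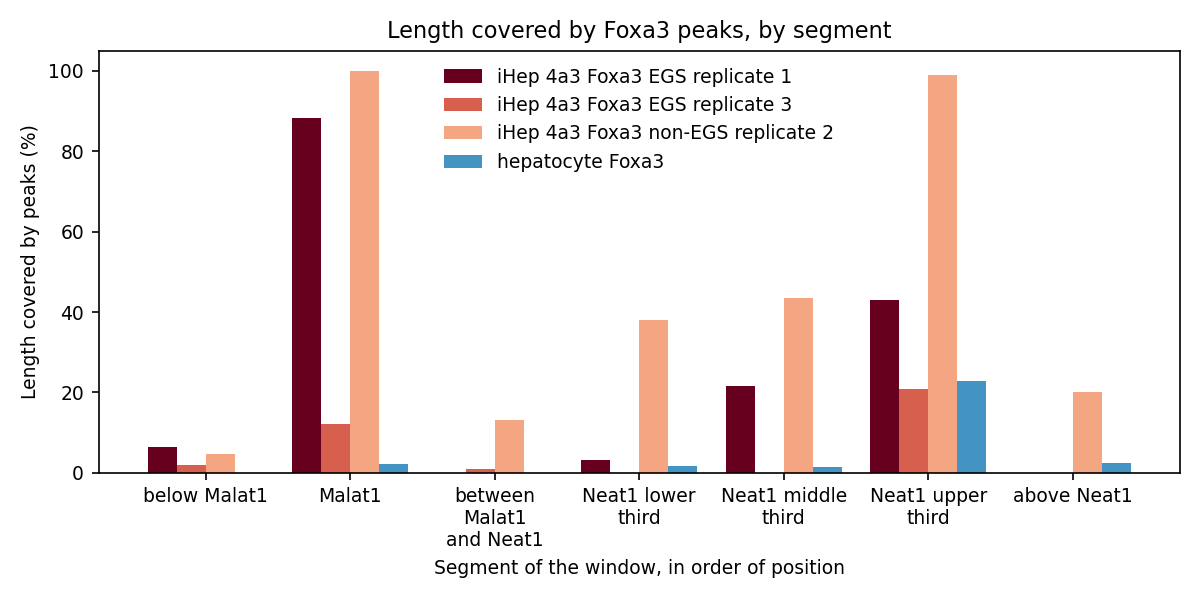
Percentage of the length of each segment of the window covered by peaks, for the 4 Foxa3 lists, in order of position. Malat1 is covered to 88.2% and 100% in 2 iHep lists, and in every list the upper part of Neat1 is covered more than its middle and lower parts.

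Outside the genes the lists differed. Between Malat1 and Neat1, a stretch of 22 kb, peaks covered 13.2% in the non-EGS list and 1.05% in EGS replicate 3, and EGS replicate 1 had none. Above Neat1, the side of Frmd8, the non-EGS list had 8 peaks over 19.99% of 14 kb, and both EGS lists had none. The only Foxa2 peak lay there too, from 5846522 to 5846986, at rank 6575 of 11408 in its list. It overlapped 2 peaks of the Foxa3 non-EGS list.

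At the edges of the window the lists had wide gaps. The members nearest the lower edge started at 5793489 in EGS replicate 1 and at 5794052 in the non-EGS list, and the last of them ended at 5845425 and 5850312. The nearest peaks outside were 289 kb below and 1126 kb above the window in EGS replicate 1, and 292 kb below and 187 kb above it in the non-EGS list. The cluster therefore ended inside the window on both sides in both lists.

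Peaks of the window came from all ranks of their lists. The median percentile of the score within its list was 58.5 in EGS replicate 1, 46.7 in EGS replicate 3 and 42.5 in the non-EGS list, where 50 marks the middle of a list. Above the 50th percentile were 20 of the 30 peaks of EGS replicate 1, 4 of the 17 of EGS replicate 3 and 14 of the 35 of the non-EGS list. In EGS replicate 1, 5 of the 30 were above the 90th percentile, as were 5 of the 35 in the non-EGS list and 1 of the 17 in EGS replicate 3. Percentiles in the window spanned 0.843 to 98.8 in EGS replicate 1 and 2.06 to 100 in the non-EGS list. The locus thus joined a few wide, high-ranking peaks with many narrower ones from all ranks.

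Median width in the window was 231.5 bp, against 148 bp for the rest of the list, in EGS replicate 1. It was 155 against 143 bp in EGS replicate 3 and 238 against 179 bp in the non-EGS list. The gap to the next peak had a median of 185, 407 and 275 bp in these 3 lists. With peaks within 1 kb merged, the 30, 17 and 35 peaks became 5, 6 and 5.

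**Figure D5:**
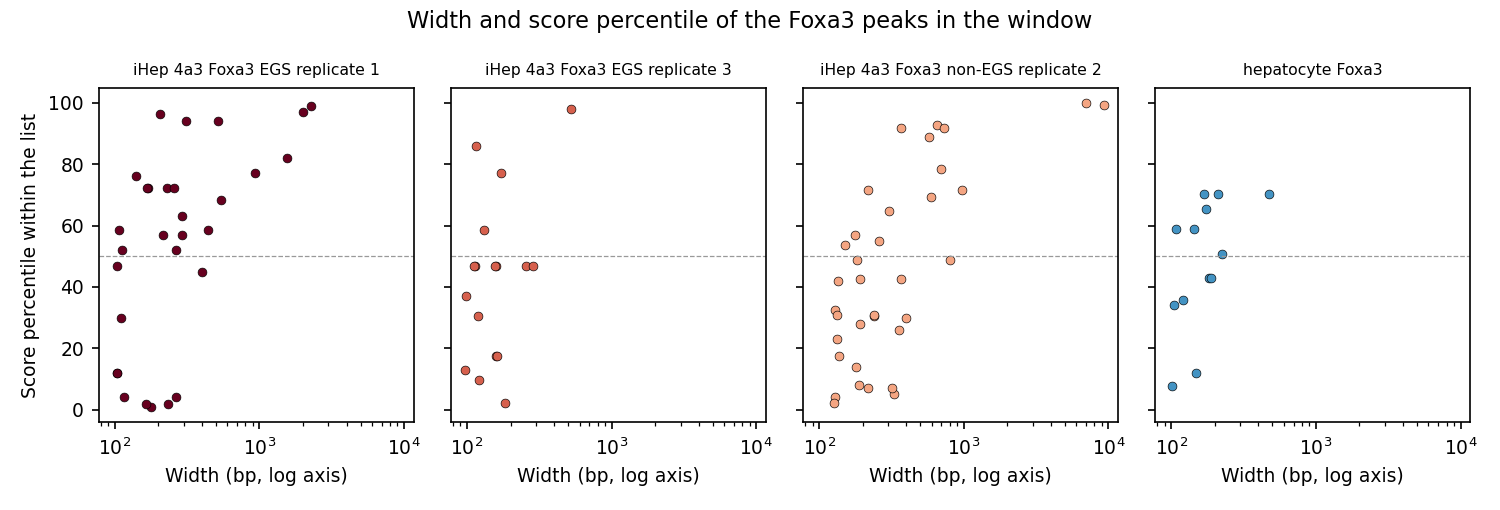
Width (bp, log axis) against score percentile within its list for each Foxa3 peak of the window, by list, with the 50th percentile dashed. The widest peaks of the iHep lists stand at percentiles 98.8, 97.8 and 99.4, and no hepatocyte peak passes 70.3.

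The peaks of the 3 iHep Foxa3 lists overlapped in the window to very unlike degrees. Peaks of the non-EGS list cover 33.8% of the window, and overlaps over the whole lists were not counted. They cover 100% of the Malat1 interval and 99.1% of the upper part of Neat1, so overlap with that list was nearly fixed there. All 17 peaks of EGS replicate 3 overlapped a peak of the non-EGS list, and 12 of the 17 overlapped one of EGS replicate 1. Of the 30 peaks of EGS replicate 1, 26 overlapped the non-EGS list and 7 overlapped EGS replicate 3. The non-EGS list shared 7 of its 35 peaks with EGS replicate 1 and 4 with EGS replicate 3. Of its covered length in the window, EGS replicate 1 shared 92.5% with the non-EGS list and 15.2% with EGS replicate 3. EGS replicate 3 shared 98.0% with the non-EGS list and 65.6% with EGS replicate 1. The non-EGS list shared 43.6% with EGS replicate 1 and 10.7% with EGS replicate 3. In bases, 1944 bp in 14 stretches were covered in all 3 lists. Malat1 held 915 bp and Neat1 755 bp of these, and the others lay just below the Malat1 interval. The longest common stretch, 280 bp from 5845118 to 5845397, is at the upper end of Neat1.

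Taking all lists, the 98 peaks merged into 38 regions, of which 25 were in 1 list and 9 in 2 lists. The 4 regions found in 3 or more lists were the Malat1 stretch named above (5 lists), the long Neat1 stretch (4 lists), a region from 5836671 to 5837391 in the middle part of Neat1 (3 lists) and one from 5845647 to 5846377 across the upper end of the Neat1 interval (3 lists). The hepatocyte Foxa3 list had a peak in all 4, and so did the Foxa3 non-EGS list. Lists that share a region need not overlap each other, since 1 broad peak can join them. The Malat1 stretch and the long Neat1 stretch each have the bounds of 1 peak of the Foxa3 non-EGS list. The Flag peaks of line 4a3 overlapped 0 peaks of the hepatocyte Foxa3 list and 0 of EGS replicate 3. Regions by number of lists were not counted outside the window.

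In iHep cells the Foxa3 lists had 30, 17 and 35 peaks in the window and in hepatocytes the Foxa3 list had 13 of 1091, a difference of 14.3 from the iHep mean. The hepatocyte number lay below all 3 iHep numbers. With 1 hepatocyte library there is no replicate check, and no run holds Foxa3 libraries of both cell types, so run and cell type cannot be told apart. The direction turned when peaks within 1 kb were merged, with 5.33 stretches on average in iHep cells and 8 in hepatocytes. As a share of the list, the hepatocyte value of 1.19% (exact interval 0.636 to 2.03) lay between those of the iHep lists. At least 1 peak was found in 3.82% of the 9695 windows for hepatocyte Foxa3, in 1.74% for hepatocyte Foxa2 and in 0.763% for hepatocyte Foxa1.

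The hepatocyte peaks lay mainly on Neat1, which 10 of the 13 overlapped. The median width of the hepatocyte peaks was 169 bp, against 136.5 bp for the rest of the list. Covered length was 12.8, 2.96 and 27.1 kb in the iHep lists and 2.35 kb in hepatocytes. Over Malat1, where the iHep lists covered 88.2%, 12.3% and 100%, the hepatocyte list had 1 peak, from 5802143 to 5802316, over 2.17% of the interval. Over the upper part of Neat1, where the iHep lists covered 42.9%, 20.9% and 99.1%, the 8 hepatocyte peaks covered 22.8%. The hepatocyte list was therefore near EGS replicate 3 over Neat1 and below all iHep lists over Malat1.

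The widest hepatocyte peak, 477 bp from 5842439 to 5842915, shared the highest score of the window there, at rank 292 of 1091. No hepatocyte peak of the window was above the 90th percentile, and their median percentile was 50.6. By number of peaks the window was placed 13th in the hepatocyte list, level with 4 others. The first window of that list, on chromosome 11 from 3060000 to 3140000, had 39 peaks.

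All 13 hepatocyte Foxa3 peaks of the window overlapped an iHep Foxa3 peak, as did 25.8% of the 1091 hepatocyte Foxa3 peaks of the whole list. Of the length they cover, 99.4% was also covered in iHep cells, while only 8.31% of the length covered in iHep cells was covered in hepatocytes. Without the Foxa3 non-EGS library the first share was 62.5%. Of the 13 peaks, 13 overlapped the non-EGS list, 8 overlapped EGS replicate 1 and 4 overlapped EGS replicate 3. Over the whole hepatocyte list these shares were 23.6%, 13.7% and 1.74%. Peaks of the non-EGS list cover 33.8% of the window, the most of the 3. They cover 100% of Malat1 and 99.1% of the upper part of Neat1, where 1 and 8 of the hepatocyte peaks lie. Overlap was nearly fixed there, so the shares over the whole list are no like measure. The hepatocyte peaks found in all 3 iHep lists were 5802143 to 5802316 at Malat1 and 5845033 to 5845137 at the upper end of Neat1. In bases, 94 bp at Malat1 (5802156 to 5802249) and 20 bp at Neat1 (5845118 to 5845137) were covered in all 4 Foxa3 lists. Both lie toward the start of their gene. Windows with a peak in each of the 4 Foxa3 lists were 0.165% of all (16 windows), and 0.134% (13 windows) also had no Foxa1 peak. Neither number could pass 18, the windows with a peak of EGS replicate 3.

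The Flag libraries followed the Foxa3 lists only in part. The Flag list of line 4a3 had 2 peaks in the window, 218 bp in Malat1 (5797446 to 5797663) and 198 bp at the upper end of Neat1 (5845675 to 5845872). At least 1 peak of this list was in 8.25% of windows. By number of peaks the window was placed 13th in this list, as 1 of 53 windows with 2 peaks. The 2 peaks ranked 867 and 593 of 883 by score. Both overlapped the Foxa3 non-EGS list, and that in Malat1 also overlapped EGS replicate 1. The Flag list of line 4a2, which received Foxa2 and not Foxa3, holds 21 peaks. It had none in the window, against 0.175% of windows with at least 1.

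The windows whose numbers of peaks were most like those of the locus were found by the cosine of log2(number + 1) over the 14 lists, among 308 other windows with at least 10 peaks. The 5 nearest lay on chromosome 13 from 23700000 to 23780000 (cosine 0.97), on chromosome 11 from 101460000 to 101540000 (0.96), on chromosome 3 from 96020000 to 96100000 (0.95), on chromosome 6 from 51380000 to 51460000 (0.94) and on chromosome 15 from 80020000 to 80100000 (0.94). Each had a peak in all 4 Foxa3 lists and none in any Foxa1 list, a likeness on which they were chosen. That on chromosome 13 also had 1 Foxa2 non-EGS peak. That on chromosome 3 had 1 peak of Foxa2 EGS replicate 2, 2 of the Foxa2 non-EGS list and 1 Flag peak of line 4a3. All 5 windows held fewer peaks than the locus, 13 to 38 in all. That on chromosome 3 came closest in the hepatocyte Foxa3 list, with 11 peaks. The genes in these windows were not analysed here.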

How the data were processed

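Reads were handled with MACS2 2.1.0, BWA 0.6.2 and bedtools 2.16.2 on build mm9, per the submitters' processing notes, which as used here give no role or setting. Each deposited list belongs to 1 library and gives chromosome, start, end, name and the authors' score. Scores ranked peaks within a list only, since the lowest was 50.0 in the Flag list of line 4a3 and between 5.00 and 5.87 in the others. How peaks were thresholded, and whether an input was subtracted, is not given in the sources used here. Read depth is unknown.

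Starts are written 1-based. Percentiles are of the score within its list, ties averaged. The counting steps were tested on simulated data. Python 3.11.15, numpy 2.4.6, pandas 2.3.3, scipy 1.17.1 and matplotlib 3.10.9 were used. Merged regions in 3 or more lists, the highest-scoring and widest peak of each list and the 5 windows most alike were named by rule, and other peaks after their values were seen. The locus and the measures were chosen with earlier results of these data known. Alternatives were another choice of peaks, overlap, merging, unit, EGS class, window phase and libraries. No sequence of mm9 was used.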

Additional observations from a re-analysis of the deposited data

Results flagged for a closer look

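Among the 6 Foxa1 and Foxa2 libraries of iHep cells, a rule on the gap to the nearest library flagged the Foxa2 non-EGS library of line 4a2. The library was kept in the mean of the 6. It had 1 peak in the window against 0 in each of the other 5. The covered length of 0.465 kb against 0 is that same peak. With the other 5 tied at 0, any peak at all would have met the rule, so it gives no sign that this library is unusual. Its list is the longest of the series, 11408 peaks, with a peak in 79.9% of the windows compared.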

How the results depend on the processing

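The difference between the iHep Foxa3 mean and the iHep Foxa1 and Foxa2 mean, 27.2 peaks as deposited, kept its direction in all settings tried. It was 13 with the top-scoring 50% of each list, 9 with the top 300 peaks and 5.17 with peaks within 1 kb merged. The cut at 300 left the list of 46 peaks whole, with 17 in the window. EGS replicate 1 then had 8 there and the Foxa3 non-EGS list 2. In other units it was 14.2 kb of covered length and 133.9 peaks per 1000 of the list, the last set mainly by the list of 46 peaks. Leaving out 1 library gave 23.3 to 32.3. The difference between the iHep Foxa3 mean and the hepatocyte Foxa3 list, 14.3, was -2.67 with peaks within 1 kb merged and 122.0 per 1000 of the list, and 10.5 to 19.5 without 1 library. Per 1000 of the list, the iHep lists had 24.1, 369.6 and 8.11 and the hepatocyte list 11.9. The share of the hepatocyte length covered in iHep cells was 62.5% to 99.4% without 1 library. Of the 5 windows most alike, 3 were also among the nearest 5 by peaks per 1000 of the list. Non-EGS libraries alone could not be compared with hepatocytes, which are all EGS. No test, paired or not, was run, because the locus was chosen on these numbers. Numbers within a run are given with the results as a description. Depth, the input signal and the calling threshold limit these numbers and were not analysed here.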
